A study of Mus musculus with 4 samples.

Results

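Collagen genes were examined in HL-1 cells, a mouse atrial muscle cell line that keeps beating in culture. They were all genes with a symbol made of Col, a number, the letter a and a number, measured by a probe set annotated to exactly 1 gene. This gave 42 collagen genes on 82 probe sets, of 18193 genes and 34945 probe sets with 1 symbol. In 2 stimulated samples electrical pacing at 300 beats per minute lasted 24 h, and the labels put this rate at about 1.5 to 2 times that of the controls. In the other 2 samples, the controls, the cells beat spontaneously without pacing. All cells carried the same line's background and were grown in supplemented Claycomb medium on coverslips coated with gelatin, which is itself denatured collagen, and fibronectin. Total RNA of each sample was hybridised to 1 Affymetrix array. No group was paced at the control rate, so a faster beat and exposure to the pulses cannot be told apart. The labels do not state whether each sample came from its own culture, and p-values therefore reflect only array-to-array spread, part or all of which may be technical.

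Collagens are the main structural proteins of the extracellular matrix. Each molecule is a triple helix of alpha chains with a regularly repeating glycine, and most types need chains of several genes. Fibrillar collagens form the tension-bearing fibres that accumulate in atrial fibrosis, where fibroblasts are their main source. Type IV collagen forms the sheet-like network of the basement membrane that surrounds each heart muscle cell. Type VII collagen forms the anchoring fibrils that tie the basement membrane of skin to the tissue below.

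The values were log2 values made by RMA, with array medians of 4.96 to 5.01. In all 13058 genes were tested with limma, each by its brightest probe set, provided its mean was at or above 4.39, the 40th percentile over the array's probe sets. Benjamini-Hochberg adjustment ran over all 13058 genes, and a gene said to have risen or fallen had an adjusted p under 0.05. Probe sets differ in efficiency, so the level of 1 gene is not set against that of another. Each change is the stimulated mean less the control mean in log2 units, and 722 genes, 5.53% of those tested, passed. All 9 atrial muscle markers lay above background. Their changes had a median of -0.26, with 8 of 9 negative, against 50.9% of all genes tested. The groups did not overlap in 7 of these 8, against 55.3% of all genes tested in either direction. Nppa, the atrial natriuretic peptide gene, was the 1 that passed and rose by 2.00 ± 0.14 (SE, adjusted p = 0.00561).

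Of the 28 collagen genes tested, 1 rose and 2 fell, which is 10.7% against 5.53% of all genes tested. Col7a1, the single gene of type VII collagen, was higher with stimulation. Col4a3 and Col4a4, which encode chains of the same type IV collagen molecule, were lower. The other 25 collagens, among them every tested fibrillar collagen, did not pass. None of the 3 calls passed when any 1 of the 4 arrays was left out, as given beside each gene. An unadjusted p under 0.05 was found for 5 of the 28, against 25.6% of all genes tested. Stimulated and control arrays were fully separated in 13 of the 28 collagens, or 46.4%, against 55.3% of all genes tested. The median change of the 28 was -0.14, against -0.01 over all genes tested. It was -0.07 without control 2 and -0.08 with no filter on low values.

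Promoter sequences of the called genes are shown because the annotated start of Col4a3 lies close to that of Col4a4. In the RefSeq tables of the mouse assembly GRCm38.p6, 33 of the 42 collagen genes had a promoter. The full RefSeq promoter window of Col4a4, which includes the stretch below, also holds the annotated start of Col4a3. Whether that start lies within the printed bases was not checked. Col4a3 is known to run the other way, so both genes that fell would be read outward from this region. Each sequence is the 250 bases before the gene's start, 5′ to 3′ on the gene's strand, at chr9:108953336-108953585 (plus) for Col7a1 and chr1:82586850-82587099 (minus) for Col4a4. Capitals mark matches to 4 motifs searched on both strands, namely CCAAT and then GGGCGG and then TATAAA and then ACGTG, whose matches do not overlap here.
Col7a1: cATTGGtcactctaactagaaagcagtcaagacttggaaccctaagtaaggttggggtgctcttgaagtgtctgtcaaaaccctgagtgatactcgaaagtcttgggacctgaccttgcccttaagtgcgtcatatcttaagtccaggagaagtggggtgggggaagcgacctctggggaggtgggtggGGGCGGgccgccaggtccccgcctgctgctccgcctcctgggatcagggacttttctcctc
Col4a4: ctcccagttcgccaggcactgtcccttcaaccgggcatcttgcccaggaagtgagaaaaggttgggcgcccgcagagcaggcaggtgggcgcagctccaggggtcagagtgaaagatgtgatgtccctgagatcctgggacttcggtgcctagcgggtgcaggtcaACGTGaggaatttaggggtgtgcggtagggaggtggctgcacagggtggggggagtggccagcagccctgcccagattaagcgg

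The Col7a1 stretch held 1 GGGCGG, 61 bases before the start, and 1 CCAAT on the opposite strand at its far end. The Col4a4 stretch held 1 ACGTG, 84 bases before the start, and none of the other motifs. Over 32851 promoters of the same length, 33.8% held CCAAT, 32.7% GGGCGG, 12.4% TATAAA and 16.6% ACGTG. These matches describe letters and are not evidence of binding. Guanine and cytosine made up 56.4% of the Col7a1 stretch and 62.8% of the Col4a4 stretch, against a median of 52.4% over all promoters.

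**Figure D1:**
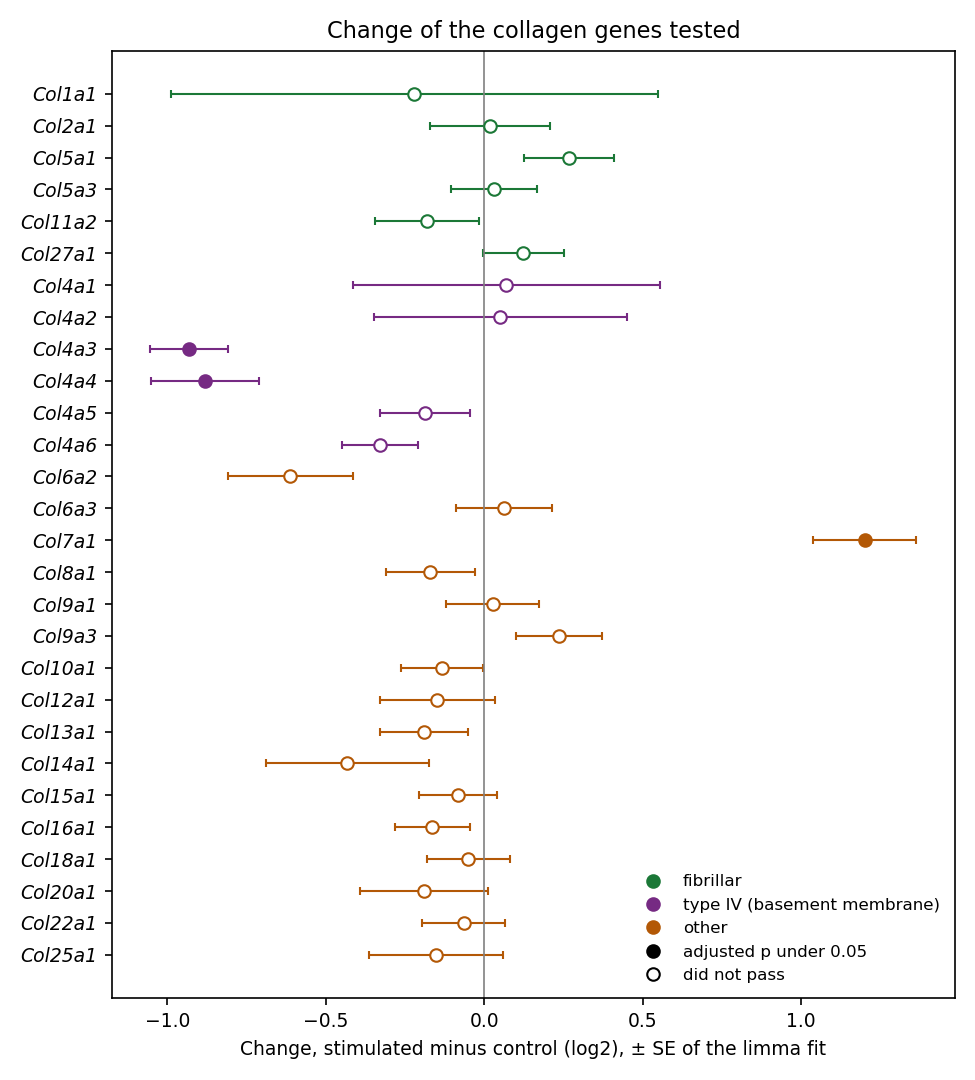
Change of each of the 28 collagen genes tested, as stimulated mean less control mean (log2), with bars for the SE from limma. Filled points passed an adjusted p of 0.05. Col7a1 lies to the right at 1.20, Col4a3 and Col4a4 to the left at -0.93 and -0.88, and Col1a1, Col4a1 and Col4a2 have the widest bars.

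Type IV collagen is built from 6 chains that combine into 3 kinds of molecule: alpha1 with alpha2, which is present in nearly all basement membranes, alpha3 with alpha4 and alpha5, and alpha5 with alpha6. All 6 genes lay above background, and 2 of them fell.

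Col4a3 read 5.887 and 6.002 on the stimulated arrays, against 6.861 and 6.889 on the control arrays. Both stimulated arrays lay below both controls. The gene fell by 0.93 ± 0.12 (SE), which made it 1.91-fold lower with stimulation (adjusted p = 0.0243). Its other probe set read 5.47 and 5.82 on the stimulated arrays and 6.54 and 6.95 on the controls, a change of -1.10 ± 0.20 (adjusted p = 0.0414 with every probe set fitted on its own). Mutations of this gene cause Alport syndrome, a disease of the kidney basement membrane.

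Col4a4 read 8.344 and 7.919 on the stimulated arrays, against 9.027 and 8.997 on the control arrays. The groups did not overlap, and the control arrays lay closer together than the stimulated ones. The gene fell by 0.88 ± 0.17 (SE), or 1.84-fold (adjusted p = 0.0448). The remaining 2 probe sets of Col4a4 gave -0.73 ± 0.22 and -0.41 ± 0.20 and also did not overlap between the groups, but neither passed on its own (adjusted p = 0.115 and 0.261). When its 3 probe sets were averaged instead, the change was -0.68 and no longer passed (adjusted p = 0.0821).

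Neither fall passed when any 1 of the 4 arrays was left out, though the changes stayed between -0.99 and -0.87 for Col4a3 (adjusted p = 0.0567 to 0.154) and between -1.09 and -0.67 for Col4a4 (adjusted p = 0.0769 to 0.200). Between the arrays numbered 1 the differences were -0.97 for Col4a3 and -0.68 for Col4a4, and between those numbered 2 they were -0.89 and -1.08.

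Col4a5 and Col4a6, which lie head to head on the X chromosome, did not pass. Col4a5, whose chain also joins the alpha3 and alpha4 chains, read 10.07 and 10.28 on the stimulated arrays and 10.44 and 10.28 on the controls. The second array of each group read nearly the same, and the change was -0.19 ± 0.14 (adjusted p = 0.475). Its other probe set changed by -0.27 with no overlap. Col4a6 read 7.87 and 7.83 on the stimulated arrays, against 8.20 and 8.16 on the controls. The groups were separate on both of its probe sets, with changes of -0.33 ± 0.12 and -0.31 ± 0.14, but the first had an unadjusted p of 0.0334 and an adjusted p of 0.159.

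Col4a1 and Col4a2, the widespread pair, did not pass. Col4a1 read 8.68 and 9.89 on the stimulated arrays and 8.67 and 9.76 on the controls. Col4a2 read 7.35 and 8.17 on the stimulated arrays and 7.19 and 8.23 on the controls. In both genes the array numbered 2 was the higher in each group, and the groups overlapped fully. The changes were 0.07 ± 0.48 for Col4a1 (adjusted p = 0.952) and 0.05 ± 0.40 for Col4a2 (adjusted p = 0.959). With 1 array left out they ran from -0.53 to 0.67 for Col4a1 and from -0.47 to 0.57 for Col4a2, so these arrays do not settle a direction for either gene. These 2 genes also lie head to head, and their RefSeq promoter windows on chromosome 8 share 78 bases. The 6 type IV genes had a median change of -0.26, with 2 of 6 called lower, against 1.62% of all genes tested.

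**Figure D2:**
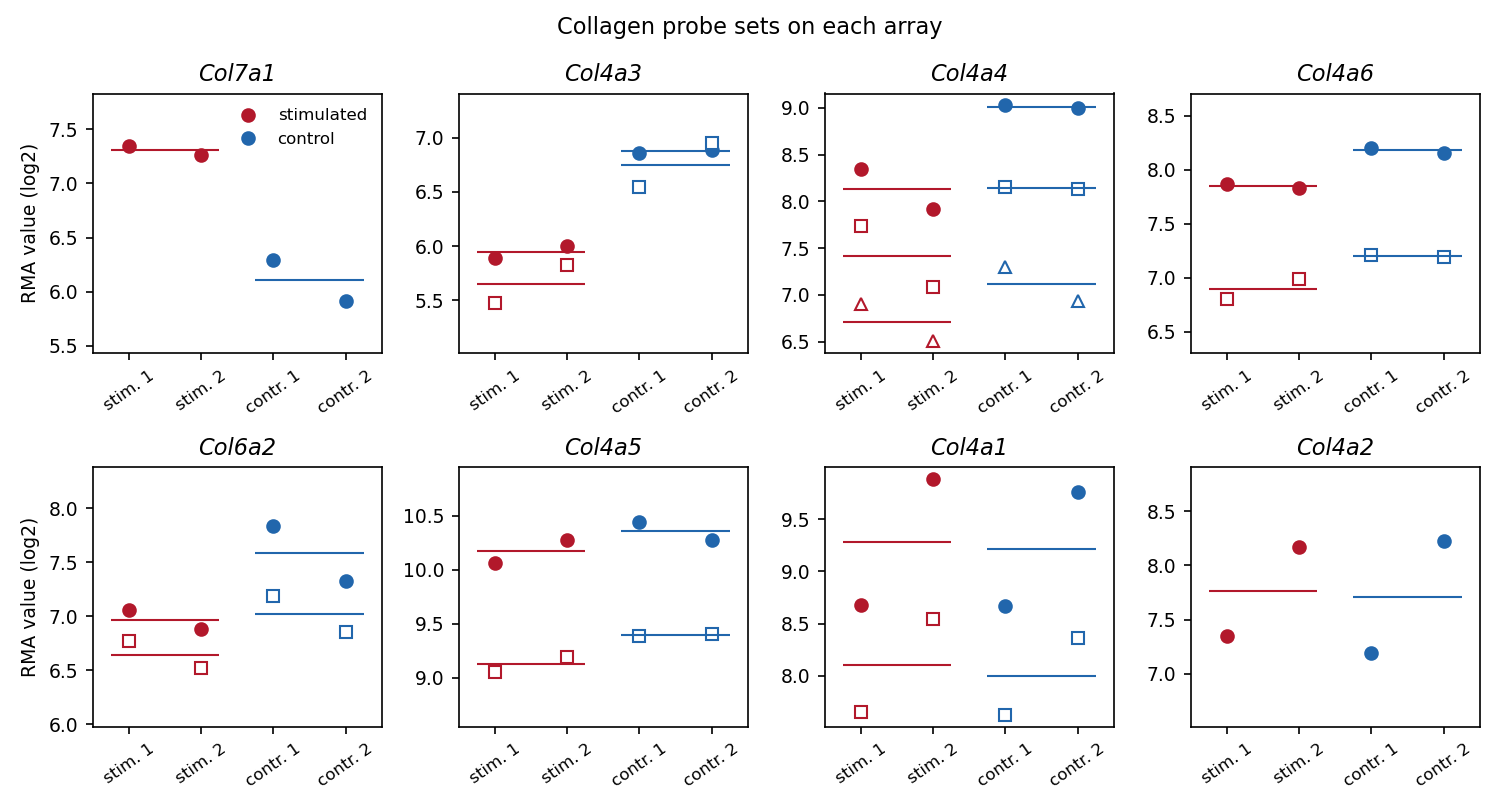
RMA values (log2) of 8 collagen genes on each array, with stimulated arrays in red at the left and control arrays in blue at the right of each panel. Filled points are the probe set used for the gene, open points its other probe sets, lines are group means, and each panel has its own range. Col7a1 is higher and Col4a3 and Col4a4 are lower on both stimulated arrays, while in Col4a1 and Col4a2 the arrays numbered 2 are the higher ones in both groups.

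Col7a1 rose. It read 7.35 and 7.26 on the stimulated arrays, against 6.30 and 5.91 on the control arrays, a mean of 7.31 ± 0.06 with stimulation and 6.11 ± 0.27 in controls (SD, n = 2 each). Both stimulated arrays lay above both controls by more than the spread within either group. The rise was 1.20 ± 0.16 (SE), or 2.299-fold (adjusted p = 0.0261), and 3.91% of all genes tested were called higher. The gene had 1 probe set, so no second measurement of it was at hand. The stimulated array exceeded the control array by 1.05 among those numbered 1 and by 1.35 among those numbered 2. With any 1 array left out the change was 1.01 to 1.39 and did not pass (adjusted p = 0.0689 to 0.133).

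Type VI collagen forms beaded filaments around muscle cells and needs 1 chain from each of its main genes. Col6a2 read 7.05 and 6.88 on the stimulated arrays and 7.84 and 7.32 on the controls. The groups did not overlap on either of its probe sets, with changes of -0.61 ± 0.20 and -0.38 ± 0.17. The first had an unadjusted p of 0.0208 and an adjusted p of 0.122. Col6a3 read 6.72 and 6.64 on the stimulated arrays and 6.78 and 6.46 on the controls, and its groups overlapped (change 0.06 ± 0.15, adjusted p = 0.847). Col6a1 read 4.41 and 3.92 with stimulation and 4.04 and 3.96 in controls, a mean below the level for testing.

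Among the 11 fibrillar genes with a probe set, 6 were tested. By limma 0 of these passed, against 5.53% of all genes tested, and 0 had an unadjusted p under 0.05, against 25.6%. Their median change was 0.02, and single changes lay between -0.22 and 0.27. The sign of that median was not stable: it was -0.14 without control 1, 0.17 without control 2 and 0.13 without stimulated 1, -0.08 with probe sets averaged and -0.07 with no filter. By the probe set used for each gene, Col5a1, a minor chain that helps start fibres, changed most at 0.27 ± 0.14 (adjusted p = 0.308). Its groups did not overlap. The other probe sets of Col5a1 lay below the level for testing and changed by -0.16 and 0.23. Col27a1 and Col11a2, which are known mainly from cartilage, changed by 0.12 ± 0.13 and -0.18 ± 0.16. A second probe set of Col27a1 gave 0.36 ± 0.19, and the groups overlapped on neither of its probe sets. Col2a1, the main cartilage collagen, changed by 0.02 ± 0.19, and Col5a3 by 0.03 ± 0.14.

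Col1a1, the main chain of type I collagen, read 5.49 and 7.14 on the stimulated arrays and 5.51 and 7.55 on the controls. The spread within each group, with an SD of 1.17 among stimulated and 1.44 among control arrays, far exceeded the difference of -0.22 ± 0.77 between them (adjusted p = 0.899). Its second probe set read the same way, with the array numbered 2 higher by 1.01 in stimulated and by 1.39 in control cells. Col1a2, the partner chain of type I collagen, read 4.30 and 4.32 on the stimulated arrays and 4.42 and 4.27 on the controls. It lay below the level for testing and did not differ between the arrays as Col1a1 did. Col3a1, the other abundant fibrillar collagen of heart tissue, was also below that level, at 3.36 ± 0.15 with stimulation and 3.53 ± 0.003 in controls (SD, n = 2 each).

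The 16 tested genes outside the fibrillar and type IV classes had a median change of -0.14. Col7a1 was the only call among them, which is 6.25% against 5.53% of all genes tested. The fibril-associated collagens, which decorate the surface of fibres, did not pass. Col14a1 changed by -0.43 ± 0.26, Col20a1 by -0.19 ± 0.20, Col16a1 by -0.16 ± 0.12, Col12a1 by -0.15 ± 0.18 and Col22a1 by -0.06 ± 0.13. A second probe set of Col12a1 gave -0.66 ± 0.36, and a second one of Col20a1 gave 0.28 ± 0.17. Col9a3 and Col9a1, chains of type IX collagen, changed by 0.24 ± 0.14 and 0.03 ± 0.15. Col13a1 and Col25a1, which span the cell membrane, changed by -0.19 ± 0.14 and -0.15 ± 0.21. Col15a1 and Col18a1, which lie at the outer face of basement membranes, changed by -0.08 ± 0.12 and -0.05 ± 0.13. Col8a1 and Col10a1, which build open networks, changed by -0.17 ± 0.14 and -0.13 ± 0.13. By the probe set used for each gene, adjusted p for the genes of this paragraph other than Col7a1 lay between 0.342 and 0.939. For the second probe sets of Col12a1 and Col20a1 it was 0.319 and 0.348, with every probe set fitted on its own.

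Background was judged from 43 probe sets of olfactory receptor genes, which muscle is not known to express at high levels. Their median was 3.71 and their 95th percentile 4.97. Of the 42 collagens, 24 lay above that percentile: all 6 of type IV, 5 of 11 fibrillar and 13 of 25 others. Among these others, Col20a1 (5.13) and Col22a1 (5.09) stayed under the highest olfactory receptor probe set (5.18). Another 4, Col5a3, Col8a1, Col10a1 and Col15a1, reached the level for testing but not the 95th percentile. The remaining 14 were below both levels, with means of 2.92 to 4.33 and changes between -0.18 and 0.17. They were Col1a2, Col3a1, Col5a2, Col6a1, Col6a4, Col6a5, Col8a2, Col9a2, Col11a1, Col17a1, Col19a1, Col23a1, Col24a1 and Col26a1. For several types only some chains were above background: Col1a1 without Col1a2, Col5a1 without Col5a2, and Col6a2 and Col6a3 without Col6a1. The same held for Col9a1 and Col9a3 without Col9a2, and for Col11a2 without Col11a1. These levels rest on the brightest probe set of each gene. The other probe sets of Col5a1 (4.01 and 3.52), Col9a1 (3.07) and Col9a3 (3.45 and 2.97) lay below the level for testing. So did those of Col14a1, Col22a1 and Col25a1, while those of Col1a1 (5.88) and Col6a2 (6.83) lay above background. Whether low readings of a chain or probe set reflect little RNA or inefficient probes was not tested. Col6a6 and Col28a1 had no probe set with 1 symbol and were not analysed here.

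**Figure D3:**
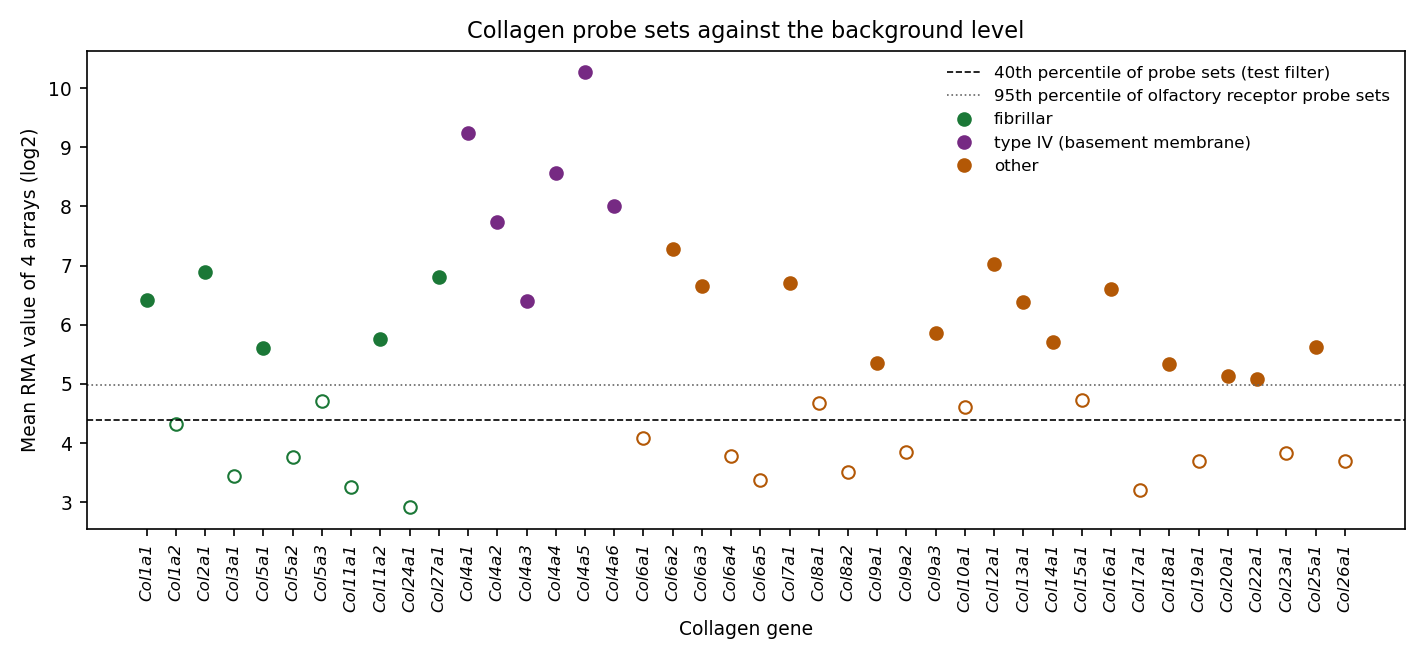
Mean RMA value over the 4 arrays (log2) of the probe set used for each of the 42 collagen genes, by class, with filled points above the olfactory receptor level. The dashed line is the 40th percentile of all probe sets (4.39) and the dotted line the 95th percentile of olfactory receptor probe sets (4.97). All 6 type IV genes lie above both lines, while 5 of 11 fibrillar genes lie below the dashed line.

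The arrays numbered 2 stood apart from those numbered 1 in 3 collagens, which were singled out after their values were seen. Col1a1 was higher on stimulated 2 than on stimulated 1 by 1.65, and on control 2 than on control 1 by 2.04. By the smaller of these 2 differences it ranked 1 among all 13058 genes tested, Col4a1 ranked 7 and Col4a2 ranked 20. In all, 24 genes, or 0.184%, were higher by at least 0.8 on the second array of both groups, and these 3 collagens were among them. At least 0.8 lower on both second arrays were 10 genes, of which 0 were collagens. Experiment numbers come with both stimulated samples but with only 1 control, so what the arrays of 1 number have in common is not given.

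**Figure D4:**
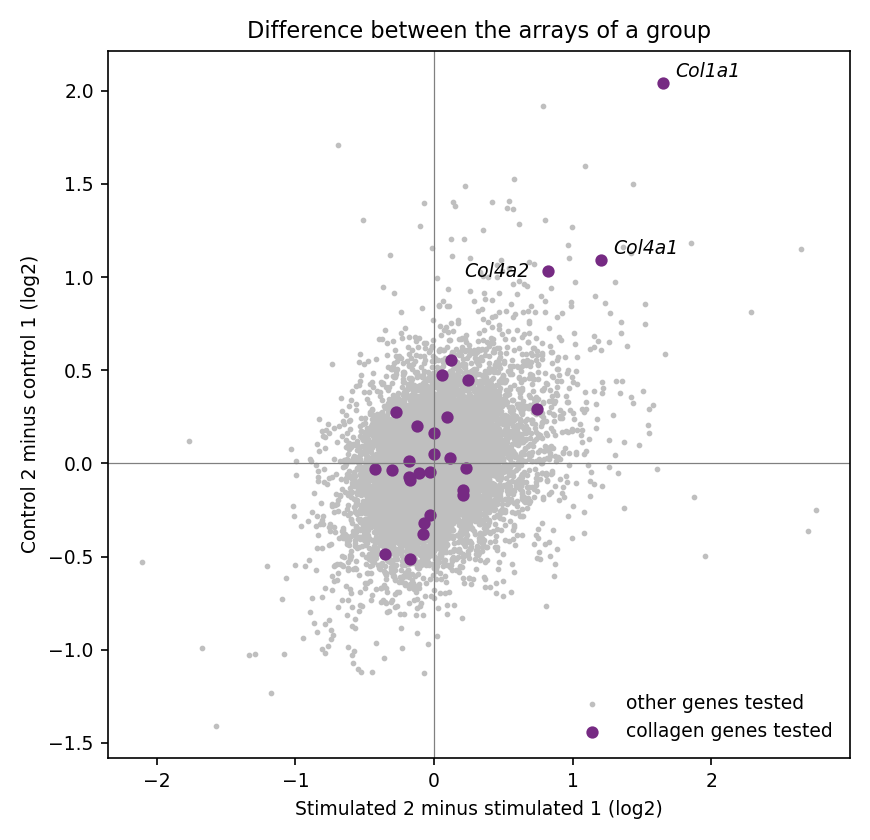
Difference between the arrays of a group for the 13058 genes tested, stimulated 2 minus stimulated 1 on the x axis and control 2 minus control 1 on the y axis (log2). Collagen genes are purple and other genes grey. Col1a1, at 1.65 and 2.04, lies at the upper right edge, with Col4a1 and Col4a2 below it and most other collagens near the centre.

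Genes that modify, process, bind or accompany collagen were taken from lists written from general knowledge. Of 21 tested genes for collagen modification, folding and export, 0 rose and 1 fell, which is 4.76% called and near the 5.53% of all genes tested, with a median change of -0.16. Fkbp14, a prolyl isomerase of the endoplasmic reticulum that helps fold collagen, read 7.08 and 7.45 on the stimulated arrays and 8.36 and 8.07 on the controls. It fell by 0.95 ± 0.18 (adjusted p = 0.0435), with no overlap between the groups. With its probe sets averaged the change was -0.51 and did not pass (adjusted p = 0.0517). Creb3l1, a transcription factor that drives type I collagen in bone of mice, changed by -0.63 ± 0.14 (adjusted p = 0.0555). Crtap, part of the complex that hydroxylates proline in collagen, changed by -0.47 ± 0.15, and Tmem38b, a channel needed for collagen modification, by 0.35 ± 0.12. The collagen chaperone gene Serpinh1 read 11.50 and 11.65 with stimulation and 11.60 and 11.56 in controls.

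Of 10 tested genes for processing and cross-linking, 0 passed by limma, against 5.53% of all genes tested. An unadjusted p under 0.05 was found for 2, against 25.6% of all genes tested, and the median change was -0.08. Pcolce2, an enhancer of procollagen cleavage, changed by -0.51 ± 0.19, Pxdn, the peroxidase that links type IV collagen, by -0.36 ± 0.16, Sparc, a collagen-binding protein, by -0.33 ± 0.14, and Pcolce by -0.28 ± 0.14 (adjusted p of these 0.172 to 0.281). Of 8 tested collagen receptor genes 0 passed by limma, against the same 5.53%. There was 1 at an unadjusted p under 0.05, against the same 25.6%, and the median change was -0.02. Ddr2, a receptor tyrosine kinase for fibrillar collagen, changed by 0.37 ± 0.13 (adjusted p = 0.149). The integrin genes Itga10, Itga1 and Itgb1 changed by -0.32 ± 0.14, -0.20 ± 0.15 and -0.23 ± 0.18.

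Of 9 tested basement membrane partners, 0 rose and 1 fell, which is 11.1% called against 5.53% of all genes tested, with a median change of -0.17. Lamb3, which encodes the beta3 chain of an epithelial laminin, read 6.11 and 6.31 on the stimulated arrays and 7.05 and 7.72 on the controls. It fell by 1.17 ± 0.23 (adjusted p = 0.0475). The call was lost with no filter, with every probe set fitted on its own and with median centring (adjusted p up to 0.0546). Nid2, a linker between laminin and type IV collagen, changed by -0.53 ± 0.20 (adjusted p = 0.171), the proteoglycan gene Hspg2 by -0.29 ± 0.13 and Lama2 by -0.27 ± 0.14. Neither Fkbp14 nor Lamb3 passed with any 1 array left out (changes -1.13 to -0.76 and -1.51 to -0.84). Of 10 tested fibril partners 0 passed by limma, against 5.53% of all genes tested. An unadjusted p under 0.05 was found for 0, against 25.6% of all genes tested, and the median change was -0.06. Fn1, fibronectin, changed by -0.15 ± 0.22, Prelp by -0.24 ± 0.15, Dcn, the fibril proteoglycan decorin, by -0.17 ± 0.12 and Bgn by 0.09 ± 0.13.

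The summed log2 values of the 9 atrial muscle markers were 100.8 and 105.4 on the stimulated arrays, against 105.6 and 106.6 on the controls, sums that include the rise of Nppa. Of the other markers, Sln changed by -1.78 ± 0.52, Myh6 by -1.03 ± 0.30, Actn2 by -0.77 ± 0.20 and Ttn by -0.60 ± 0.23. None of these passed. Their groups did not overlap, as in 55.3% of all genes tested. Of 9 fibroblast markers other than collagens, 0 lay above the 95th percentile of the olfactory receptor probe sets, among them Pdgfra, Tcf21 and Dcn. Their summed log2 values were 38.4 and 38.2 on the stimulated arrays and 38.8 and 39.8 on the controls. The endothelial genes Pecam1, Cdh5, Tek, Tie1 and Emcn were below the level for testing, and Kdr alone of 6 was above it. Of 5 smooth muscle markers, Acta2, Tagln, Cnn1 and Smtn were above background, and Myh11 was below the level for testing. By limma 0 of the 4 passed, and 2 had an unadjusted p under 0.05, against 25.6% of all genes tested. These 2 went in opposite directions, with Tagln at 0.90 ± 0.25 and Smtn at -0.60 ± 0.14. Cnn1 changed by 0.30 ± 0.30 and Acta2 by -0.06 ± 0.13. Of 5 leukocyte markers 4 were tested and 1 passed, which is 25% against 5.53% of all genes tested. Cd68 read 6.34 and 6.59 on the stimulated arrays, against 4.07 and 4.70 on the controls, and rose (adjusted p = 0.0187). Both of its control values lay below the olfactory receptor level, so no size is given for the rise. Their mean of 4.386 was also under the level for testing (4.389). Cd68 was therefore tested only because of its stimulated arrays, and the 25% rests on it. Csf1r changed by 0.89 ± 0.44 with overlapping groups, Adgre1 by -0.32 ± 0.19 and Lyz2 by -0.07 ± 0.12. Ptprc, which marks all leukocytes, was below the level for testing. The 5 leukocyte markers summed to 26.4 and 26.6 on the stimulated arrays, against 22.6 and 25.4 on the controls, with Cd68 and Csf1r higher and the other 3 lower by their means. The part of these marker differences in the collagen results was not tested. In RNA from whole cultures, fewer cells of a type and less RNA per cell cannot be told apart.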

How the data were processed

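The deposited table held log2 values of 45101 probe sets on 4 arrays, made by the authors with RMA, per the submitters' processing notes. RMA corrects background, quantile normalizes the arrays and compresses differences near both ends of its range. The RMA version and settings are not given in the sources used here. Gene symbols came from the platform annotation, and a RefSeq table (GRCm38.p6) held the symbols of 34741 out of the 34945 single-symbol probe sets, with 0 to update. The 40th percentile leaves out 64 control probe sets. Fits used limma 3.58.1 in R 4.3.3 (lmFit, eBayes, two-sided). The replicate number of control 1 was given in accession order.

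All tested collagens are named. Array values are given for collagens called or with an unadjusted p under 0.05, for their partner chains, and for genes said to be singled out. Of each matrix list, called genes and the 4 with the smallest p are named, and Serpinh1 beside them was chosen after its values were seen. Members and lists were chosen with earlier results of these data known. Alternatives were an intensity trend, other filters, other probe set rules, median centring, leaving out each array and a replicate block. The number of arrays limits the precision.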

Additional observations from a re-analysis of the deposited data

How the results depend on the processing

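The count of 1 collagen higher and 2 lower was the same with an intensity trend, no filter, the filters at the 60th percentile and at the olfactory receptor level, every probe set fitted on its own and median centring. With the mean of all probe sets 1 was lower. With 1 array left out, 0 were higher and 0 lower in each of the 4 fits, in which 19 to 72 genes in all were called higher and 0 to 41 lower, against 510 and 212 with all arrays. Fewer arrays leave fewer residual degrees of freedom, and where 1 array remained it was assumed to vary like the other group. The median change of type IV collagens was -0.14 with Col15a1 and Col18a1 counted among them, and -0.47 to -0.21 with 1 array left out. That of the other collagens was -0.13 to -0.036 with 1 array left out, and the cause of these shifts was not tested. With the replicate number as a block (replicate block), 1 collagen was higher and 2 lower, while 856 genes in all were higher and 489 lower. Differences between the arrays of a group correlated at r = 0.334 between the groups across genes, which are not independent, and 2 pairs cannot settle a pairing. Of the 28 tested collagens, 12 changed sign under at least 1 alternative, 0 of them called. Creb3l1 passed under 4 alternatives (lowest adjusted p = 0.0398).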
